A study of Mus musculus with 21 samples.

Results

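The Hox genes encode homeodomain transcription factors and lie in 4 clusters, HoxA to HoxD. They were taken here as every gene on the array whose symbol is Hox, a cluster letter and a paralogue number. This gave 33 genes among 18193 genes measured, 9 in HoxA, 9 in HoxB, 7 in HoxC and 8 in HoxD, out of 39 such mouse genes in RefSeq. Expression was measured on 21 oligonucleotide arrays of mouse nephron progenitors sorted from kidneys at E16.5, in 7 groups of 3 arrays. The groups, all from mice of mixed background carrying Six2GFPcre, were the following. Aggregates were kept 48 h, with BIO for 24 h and then either DMSO or BIO for the second day. Aggregates were kept 24 h in BIO or in DMSO, and dispersed cells were kept 24 h in BIO or in DMSO. Fresh cells were taken straight after the sort. BIO, at 4 µM, blocks GSK3, the kinase that marks beta-catenin for breakdown, and DMSO is its solvent. Aggregates were made by centrifugation, culture medium held 10% serum, and each sample held 40000 cells. The Six2 promoter, active in nephron progenitors, drives the transgene by which cells were sorted. The series had no group of aggregates kept 48 h in DMSO alone, so a change over the second day includes that of longer culture.

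Within a cluster the paralogue number follows gene order, and in embryos low numbers are generally expressed farther forward along the body axis than high numbers. Genes that share a number in different clusters are paralogues and overlap in function. In the mouse kidney the paralogues of group 11 are best known: loss of Hoxa11, Hoxc11 and Hoxd11 together stops the metanephros from forming, and their proteins act with Eya1 on Six2 and Gdnf. Paralogues of group 10 are also needed, in the kidney stroma. Hox proteins bind DNA with cofactors of the TALE class, the Pbx, Meis and Pknox proteins, and the Polycomb and Trithorax groups hold the clusters silent or active.

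Values are signal intensities after quantile normalization, and changes are differences of log2(signal + 1), the first-named group minus the second, ± SE of a limma fit with n = 3 arrays a group. P-values are adjusted by Benjamini-Hochberg over all genes, and a gene was called changed below 0.05. The arrays are labelled as biological replicates, without saying whether they came from separate litters or sorts, so p-values measure only how far these arrays differ, and that spread may be technical. In bulk samples fewer cells of a type and less RNA per cell cannot be told apart. Background was a signal of 41.8, and signals of different genes are not compared because probe sets differ in brightness.

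Each array had 76.0 to 79.6% of genes above background, and arrays correlated with their own group at r = 0.976 to 0.992. The signal of the 3' beta-actin control was 2895 to 5479 on the arrays of aggregates after 24 h in BIO, against 7582 to 12514 on those in DMSO. All 8 nephron progenitor markers measured were above background in fresh cells, with a summed signal of 28780 to 30602. All 10 interstitial stroma markers were above background as well (15317 to 16654), as in every other group. Of 11 ureteric bud markers 8 were above background in fresh cells, and their sum was 1285 to 1890. Bud markers matter here because Hoxb7 is widely used to mark that epithelium.

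Of the 33 Hox genes, 25 had means above background in all 7 groups, 6 in HoxA, 7 in HoxB, 6 in HoxC and 6 in HoxD. Another 5 were above it in some groups: Hoxa4, Hoxa7, Hoxa13, Hoxb7 and Hoxd1. Hoxb13, Hoxc13 and Hoxd12, from the high-numbered ends of their clusters, were below it in all 7 groups. Of the other genes numbered 13, Hoxd13 was above it in all 7 groups and Hoxa13 in 6. In RefSeq (GRCm38.p6) HoxA spans chr6:52155367-52260880, HoxB chr11:96194316-96368254, HoxC chr15:102921131-103036856 and HoxD chr2:74668225-74765142. Hoxc11 was not analysed here, and Hoxb8 and Hoxd4 were measured only by probe sets they share with Hoxb7 and Hoxd3. The 33 genes were covered by 48 probe sets, 11 of them by several. Over all comparisons 56 pairings of a called result with another probe set of its gene could be made; the other probe set had the same sign in 51, was called the same way in 22 and the opposite way in 1. Overlapping annotated spans join 6 pairs of Hox genes, Hoxb3 with Hoxb4 (3372 bases) and Hoxd10 with Hoxd11 (2744 bases) among them, so their probe sets need not tell the transcripts apart.

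RefSeq promoter windows, the 250 bases before a start site, were at hand for 19 of the Hox genes (21 windows). They were searched on both strands for CTTTGAT and CTTTGAA, letters that TCF/LEF factors, the DNA-binding partners of beta-catenin, are known to bind. Hoxd8 held 2 copies of CTTTGAT, 153 and 143 bases before the start, and Hoxd12 held 1 copy of CTTTGAA. No other Hox window held either. Among all 32851 mouse promoter windows of this length 7.48% held at least 1 copy and 0.42% held 2 or more. The windows below, all on the plus strand, are those of Hoxd8 (chr2:74704365-74704614), Hoxd9 (chr2:74697513-74697762) and Hoxd1 (chr2:74762730-74762979), the HoxD genes that were called higher with BIO in both culture forms, and of Hoxc4 (chr15:103034145-103034394), the gene with the deepest loss. Capitals mark the searched letters, and their presence or absence says nothing about binding.
Hoxd8: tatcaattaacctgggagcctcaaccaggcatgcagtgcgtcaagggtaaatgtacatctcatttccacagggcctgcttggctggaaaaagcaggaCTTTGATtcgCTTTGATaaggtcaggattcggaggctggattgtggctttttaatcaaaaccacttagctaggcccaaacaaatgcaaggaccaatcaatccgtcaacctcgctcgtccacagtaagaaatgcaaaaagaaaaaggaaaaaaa
Hoxd9: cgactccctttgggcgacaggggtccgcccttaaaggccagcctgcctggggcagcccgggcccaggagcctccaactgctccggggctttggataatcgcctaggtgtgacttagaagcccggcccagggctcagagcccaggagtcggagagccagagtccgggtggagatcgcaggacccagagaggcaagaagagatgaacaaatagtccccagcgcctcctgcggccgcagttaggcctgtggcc
Hoxd1: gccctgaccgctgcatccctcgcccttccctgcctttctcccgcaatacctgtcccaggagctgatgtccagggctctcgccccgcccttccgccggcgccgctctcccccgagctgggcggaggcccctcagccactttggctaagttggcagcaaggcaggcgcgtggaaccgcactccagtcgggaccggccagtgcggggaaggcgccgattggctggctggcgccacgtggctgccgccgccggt
Hoxc4: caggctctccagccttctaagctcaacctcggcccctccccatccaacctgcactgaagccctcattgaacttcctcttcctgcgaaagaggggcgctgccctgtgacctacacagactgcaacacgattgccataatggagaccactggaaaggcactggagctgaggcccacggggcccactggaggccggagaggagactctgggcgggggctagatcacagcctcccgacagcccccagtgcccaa

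After 24 h in culture with DMSO many Hox genes were lower than in fresh cells, with Hoxc4 and Hoxc5 falling furthest. In DMSO aggregates 17 of 33 Hox genes were called, against 32.9% of all genes. Of these 16 were lower (14.5%) and 1, Hoxc13, was higher (18.4%) with both groups below background. The median log2 change of the 33 was -0.42, against 0.10 over all genes. In DMSO dispersed cells 16 were called (33.2%), 14 lower (18.3%) and 2 higher (15.0%), Hoxd13 and again Hoxc13 below background, with a median of -0.48 against -0.03. Both comparisons share the fresh arrays, so their values stand side by side and not as separate support. Nephron progenitor markers moved with them: 6 of 8 were lower in each, and their summed signal was 10789 to 12580 in DMSO aggregates and 11067 to 12282 in DMSO dispersed cells, against 28780 to 30602 in fresh cells. Cited1 was the marker below background in both cultures. The part of this in the Hox changes was not tested. The Gapdh 3' over 5' ratio was 12.7 to 15.3 in DMSO aggregates and 12.1 to 12.6 in DMSO dispersed cells, against 8.73 to 11.1 in fresh cells. With it as a covariate 14 Hox genes were called in each comparison, all 14 lower. Calls over all genes then numbered 3777 in place of 5990 for aggregates and 5127 in place of 6048 for dispersed cells.

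Hoxc4, a HoxC gene of low paralogue number, had signals of 490, 554 and 620 in DMSO aggregates and 806, 693 and 699 in DMSO dispersed cells, against 2585, 2661 and 2344 in fresh cells. It fell by 2.19 ± 0.21 (adjusted p = 5.7e-07) in aggregates and by 1.79 ± 0.21 (4.73e-06) in dispersed cells. No cultured array came near a fresh one. Its neighbour Hoxc5 had 832, 510 and 758 in aggregates and 854, 1132 and 1000 in dispersed cells, against 2880, 2655 and 2363 in fresh cells. Hoxc5 fell by 1.94 ± 0.21 (2.57e-06) and by 1.41 ± 0.21 (6.22e-05), again without overlap. Hoxc8, known in the mouse for patterning the thoracic skeleton, had 1007, 1230 and 1260 in aggregates and 1641, 1325 and 1389 in dispersed cells, against 3114, 3095 and 2924 in fresh cells. It fell by 1.39 ± 0.13 (4.51e-07) and by 1.07 ± 0.13 (6.64e-06). Hoxc9 changed by -0.64 ± 0.33 and -0.48 ± 0.33 and Hoxc6 by -0.05 ± 0.22 and -0.12 ± 0.22, and neither was called.

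In HoxA the deepest fall among called genes was that of Hoxa10, a paralogue with a role in the kidney stroma. It had 1624, 1847 and 1762 in DMSO aggregates and 2274, 1942 and 1764 in DMSO dispersed cells, against 4754, 4565 and 3423 in fresh cells. The changes were -1.27 ± 0.16 (adjusted p = 9.88e-06) and -1.08 ± 0.16 (4.32e-05), and all cultured arrays were below all fresh ones. Hoxa9 fell by 0.81 ± 0.12 in aggregates and by 0.50 ± 0.12 in dispersed cells. In HoxB, Hoxb5 fell by 0.99 ± 0.13 and 0.90 ± 0.13, Hoxb4 by 0.95 ± 0.14 and 0.50 ± 0.14, and Hoxb3 by 0.52 ± 0.09 and 0.78 ± 0.09. In HoxD, Hoxd9 fell by 0.92 ± 0.12 and 0.87 ± 0.12 and Hoxd3 by 0.74 ± 0.19 and 0.88 ± 0.19. Hoxd8 was not called in either.

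Hoxd13, which patterns the distal limb and the genital bud, was called higher in DMSO dispersed cells (251, 353 and 201) than in fresh cells (181, 117 and 80), by 1.13 ± 0.36 (adjusted p = 0.0227). A second probe set for it lay below background, so this rests on 1 of its 2 probe sets. Hoxa4 was called lower in DMSO aggregates, but its level there was below background and the fall was at least 1.20-fold. Leaving out single arrays ended the calls of Hoxa4, Hoxa11, Hoxb6 and Hoxc13 for aggregates (adjusted p up to 0.109) and of Hoxa5, Hoxc13 and Hoxd13 for dispersed cells (up to 0.166). In every alternative run but a 2-fold minimum 11 of the 17 calls in aggregates and 11 of the 16 in dispersed cells stood, Hoxc4, Hoxc5, Hoxc8, Hoxa9, Hoxa10, Hoxb3, Hoxb5, Hoxd3 and Hoxd9 among both. Other probe sets of these genes, read by themselves, did not all pass: that of Hoxa10 changed by -1.70 ± 0.70 (0.0843) and -1.55 ± 0.70 (0.124), that of Hoxa9 by -0.27 ± 0.12 in dispersed cells (0.115), and 1 of the 2 of Hoxc5 by -0.41 ± 0.59 (0.656) and -1.06 ± 0.59 (0.222).

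**Figure D1:**
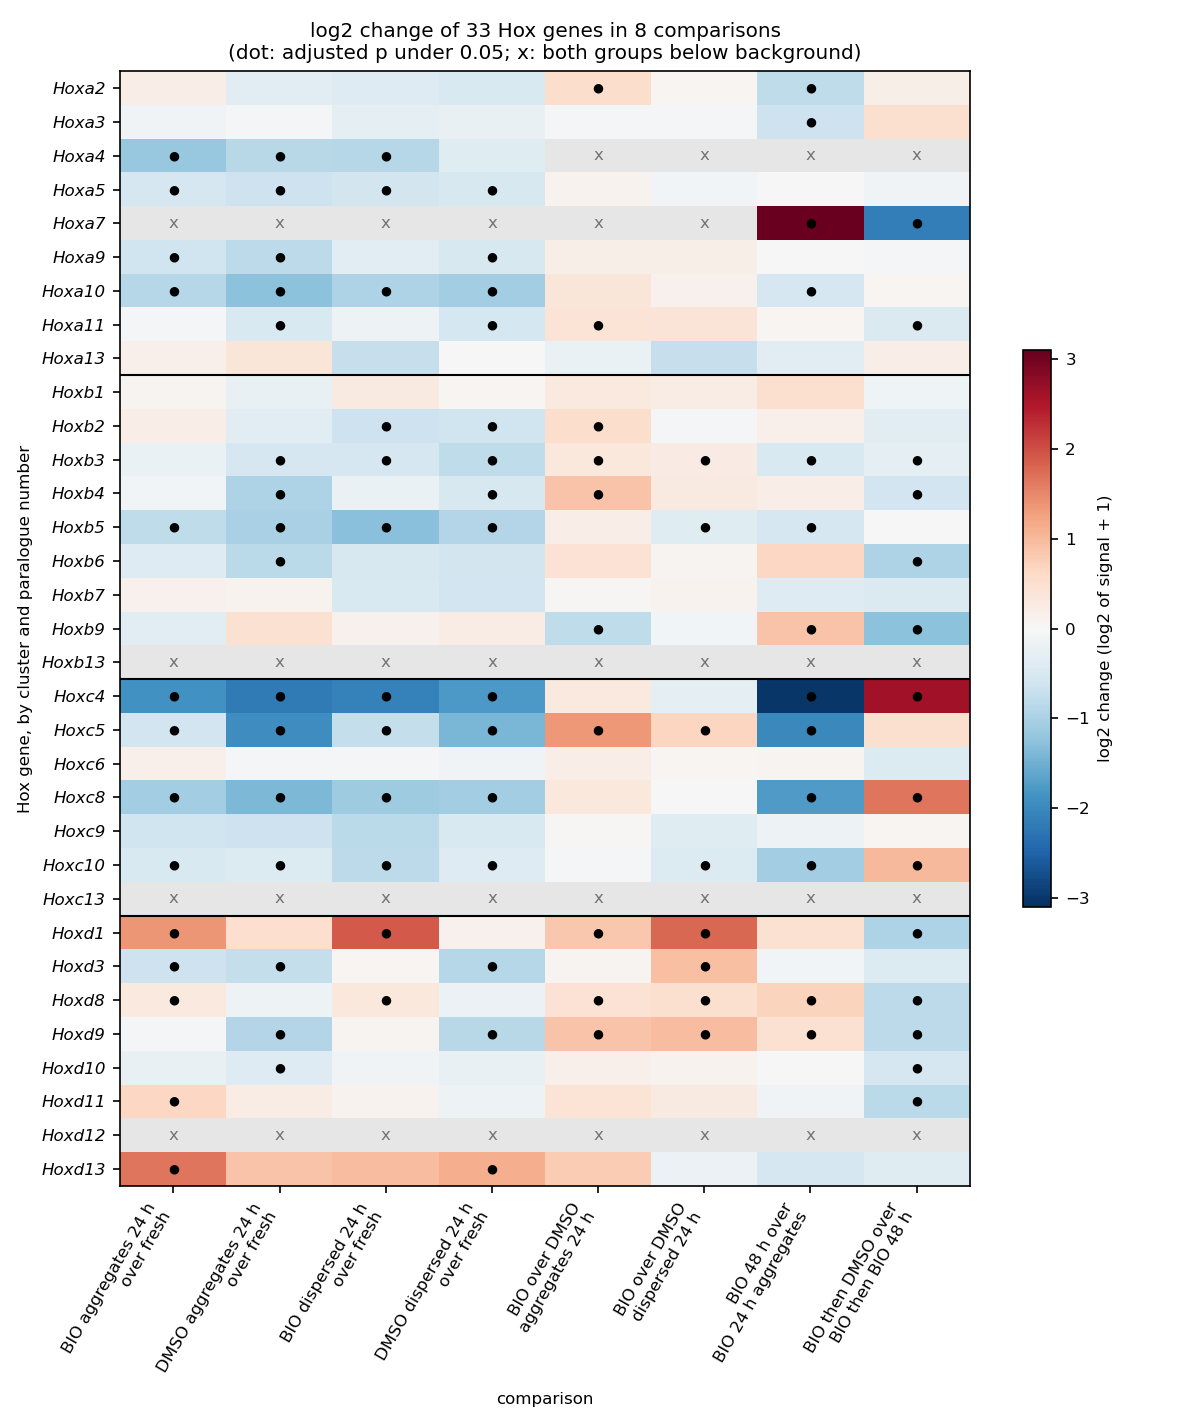
Heat map of log2 changes (colour scale, differences of log2(signal + 1)) for the 33 Hox genes in rows, ordered by cluster and paralogue number, and 8 comparisons in columns; dots mark adjusted p under 0.05, and grey squares with x mark genes below background in both groups. HoxC carries the darkest falls, -2.19 for Hoxc4 in DMSO aggregates and -3.03 with BIO on the second day, while Hoxd8 is called higher with BIO in both culture forms.

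HoxC genes and Hoxb5 were also below fresh cells in culture with BIO. In BIO aggregates 14 Hox genes were called, against 33.7% of all genes, with 10 lower than in fresh cells (11.8% of all genes) and 4 higher (21.9%). The median Hox change was -0.20, against 0.18 over all genes. In BIO dispersed cells 12 were called (25.9%), 10 lower (13.3%) and 2 higher (12.7%), with a median of -0.32 against -0.001. Markers moved here too: 10 of 10 stroma markers were lower in BIO aggregates than in fresh cells and 9 of 10 in BIO dispersed cells, and 6 of 8 and 8 of 8 nephron progenitor markers were lower. The summed stroma signal was 4942 to 5277 and 4070 to 4483, against 15317 to 16654 in fresh cells, and the part of these shifts was not tested. Hoxc4 had 684, 635 and 730 in BIO aggregates and 670, 570 and 551 in BIO dispersed cells, changes of -1.89 ± 0.21 (adjusted p = 4.88e-06) and -2.08 ± 0.21 (1.5e-06) from the same fresh arrays. Hoxc8 changed by -1.07 ± 0.13 and -1.09 ± 0.13, and Hoxb5 by -0.79 ± 0.13 and -1.29 ± 0.13. Hoxc10 changed by -0.46 ± 0.10 and -0.82 ± 0.10, and Hoxa10 by -0.89 ± 0.16 and -0.96 ± 0.16.

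The Hox genes called higher with BIO than in fresh cells were all of HoxD, 4 in aggregates and 2 in dispersed cells. Hoxd1, the HoxD gene of lowest paralogue number, had 120, 93 and 111 in BIO aggregates and 164, 149 and 160 in BIO dispersed cells, against 46, 36 and 43 in fresh cells. The fresh mean was below background, so the level was at least 2.45-fold higher in BIO aggregates (adjusted p = 0.00128) and at least 3.57-fold higher in BIO dispersed cells (7.09e-05). No array of either BIO group was as low as a fresh one. Hoxd8 was higher by 0.29 ± 0.08 (0.00847) in BIO aggregates and by 0.32 ± 0.08 (0.00592) in BIO dispersed cells. Hoxd13 was higher in BIO aggregates by 1.65 ± 0.36 (0.00205), and Hoxd11 by 0.64 ± 0.23 (0.0454). The second probe set of Hoxd13, below background, changed there by 0.32 ± 0.29 (0.444). That of Hoxd8 changed by 0.28 ± 0.17 (0.244) in BIO aggregates and by 0.78 ± 0.17 (0.00357) in BIO dispersed cells. The calls of Hoxd11, Hoxa5, Hoxc5 and Hoxd3 in BIO aggregates were lost when single arrays were left out (adjusted p up to 0.142), as were those of Hoxa4 and Hoxc5 in BIO dispersed cells (up to 0.128). With the deposited scaling 2 Hox genes were higher and 11 lower in BIO aggregates than in fresh cells. Over all genes 2549 were then higher and 2658 lower, in place of 3976 and 2153. In every alternative run but a 2-fold minimum 6 of the 14 calls in BIO aggregates stood, none of them a rise. For BIO dispersed cells 8 of the 12 stood, with Hoxd1 the only rise.

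For BIO over DMSO at 24 h the share of Hox genes called was 30.3% in aggregates and 24.2% in dispersed cells, near or below that over all genes. The largest called rises were those of Hoxc5 in aggregates and Hoxd1 in dispersed cells, with Hoxd8 and Hoxd9 higher in both. The Hoxc5 calls were lost when its probe sets were averaged. In aggregates 10 of 33 Hox genes were called, against 30.0% of all genes, 9 of them higher (17.5%) and 1 lower (12.5%). The number called was thus near the background. The median Hox change was 0.30, against 0.09 over all genes. In dispersed cells 8 were called, against 28.7% of all genes, 6 higher (15.3%) and 2 lower (13.4%), with a median of 0.06 against 0.03. These comparisons share no array. Their calls had 5 genes in common, Hoxb3, Hoxc5, Hoxd1, Hoxd8 and Hoxd9, all 5 higher in both. Calls shared over all genes were not counted, so this overlap cannot be read as high or low. Markers of nephron progenitors and of stroma moved with BIO. Of 8 progenitor markers 3 were higher and 5 lower in aggregates, and 2 were higher and 5 lower in dispersed cells. Interstitial stroma markers moved mostly 1 way. Of 10, 8 were lower in aggregates and 6 in dispersed cells, and 1 was higher in each. Their summed signal was 4942 to 5277 in BIO aggregates, against 15449 to 16336 in DMSO aggregates, and 4070 to 4483 in BIO dispersed cells, against 13803 to 14751 in DMSO dispersed cells. The part of these progenitor and stroma shifts in the Hox changes was not tested.

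Hoxd9 had 782, 845 and 920 in BIO aggregates, against 468, 445 and 467 in DMSO aggregates. It had 992, 859 and 940 in BIO dispersed cells, against 561, 437 and 440 in DMSO dispersed cells. The groups did not overlap in either form, and the rises were 0.88 ± 0.12 (adjusted p = 3.13e-05) and 0.96 ± 0.12 (1.2e-05). In fresh cells Hoxd9 had 940, 745 and 944, so the BIO groups lay within or beside the fresh range and the DMSO groups below it.

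Hoxd8, whose promoter window above holds 2 copies of CTTTGAT, had 1038, 997 and 1073 in BIO aggregates, against 807, 705 and 772 in DMSO aggregates. In dispersed cells it had 1132, 969 and 1067 with BIO, against 793, 705 and 745 with DMSO. It rose by 0.45 ± 0.08 (adjusted p = 0.000321) and by 0.50 ± 0.08 (0.00012), without overlap. Hoxd1 rose by 0.84 ± 0.28 (0.0298) in aggregates and by 1.77 ± 0.28 (0.000116) in dispersed cells, where its DMSO signals were 50, 36 and 52. Hoxd3 rose in dispersed cells, with 280, 223 and 222 in BIO against 122, 163 and 98 in DMSO, by 0.94 ± 0.19 (0.00135). In aggregates it had 171, 130 and 142 in BIO, against 126, 126 and 165 in DMSO, which overlapped.

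Hoxc5 had 1550, 1604 and 2086 in BIO aggregates, against 832, 510 and 758 in DMSO aggregates, and rose by 1.34 ± 0.21 (adjusted p = 0.000125). In dispersed cells it had 1596, 1535 and 1582 with BIO, against 854, 1132 and 1000 with DMSO, a rise of 0.67 ± 0.21 (0.0248). The groups did not overlap. Hoxc5 has 2 other probe sets, which changed in aggregates by -0.11 ± 0.59 (0.923) and 1.28 ± 0.49 (0.0719), and neither was called. With the mean of its probe sets the Hoxc5 change was 0.83 in aggregates (0.0648) and 0.76 in dispersed cells (0.0985), and both calls were lost.

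Hoxb4, known for its use in expanding blood stem cells, had 392, 328 and 356 in BIO aggregates, against 190, 189 and 204 in DMSO aggregates. It rose by 0.88 ± 0.14 (0.000101), and its second probe set was called in the same direction. In dispersed cells it changed by 0.28 ± 0.14 and was not called.

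Smaller rises in aggregates were those of Hoxa2 (0.54 ± 0.18), Hoxb2 (0.54 ± 0.14) and Hoxb3 (0.33 ± 0.09). The falls were those of Hoxb9 in aggregates, with 356, 565 and 465 in BIO against 849, 817 and 687 in DMSO (-0.78 ± 0.26, adjusted p = 0.0297), and of Hoxc10 in dispersed cells, with 3639, 3414 and 3711 in BIO against 5090, 4860 and 4555 in DMSO (-0.43 ± 0.10, 0.0041). Hoxb5 fell by 0.38 ± 0.13 (0.0418) in dispersed cells. Neither Hoxb9 nor Hoxc10 overlapped between its groups.

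In every alternative run but a 2-fold minimum Hoxd8 and Hoxd9 kept their calls in aggregates, and Hoxd1, Hoxd3, Hoxd8 and Hoxd9 in dispersed cells. The second probe set of Hoxd8 by itself changed by 0.45 ± 0.17 in aggregates (adjusted p = 0.0732, not called) and by 0.70 ± 0.17 in dispersed cells (0.00677). Leaving out single arrays ended the calls of Hoxa2, Hoxa11, Hoxb2, Hoxb9 and Hoxd1 in aggregates (adjusted p up to 0.131) and of Hoxb3, Hoxb5 and Hoxc5 in dispersed cells (up to 0.121). Without BIO aggregate array 1 the count in aggregates was 5, and without BIO dispersed array 2 the count in dispersed cells was 5. Adjusting for 3' beta-actin signal the count in aggregates was 4 and Hoxb2 changed by -0.07. Calls over all genes in aggregates then numbered 2456 in place of 5455.

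**Figure D2:**
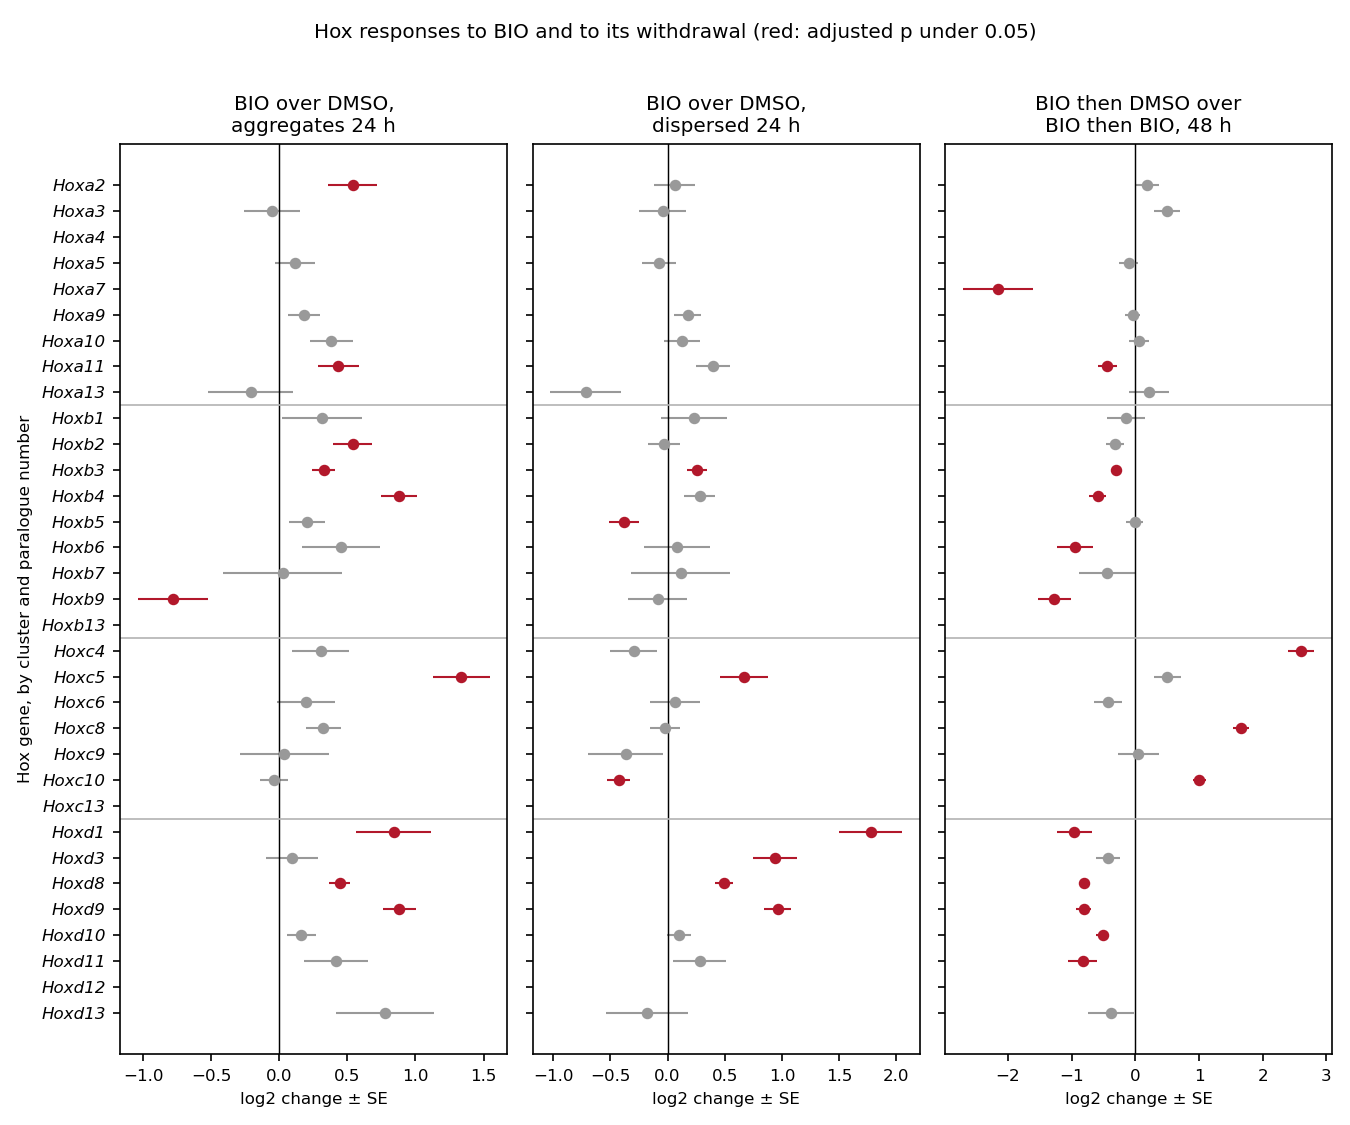
Log2 changes ± SE (horizontal axes, scales differ between panels; n = 3 arrays a group) of Hox genes above background in at least 1 of the groups compared, in rows by cluster and paralogue number; red points have adjusted p under 0.05. Hoxd8 and Hoxd9 lie right of 0 with BIO in both culture forms (0.45 to 0.96) and left of 0 after withdrawal (-0.80 and -0.81), while Hoxc4, Hoxc8 and Hoxc10 lie right of 0 after withdrawal (1.01 to 2.60).

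Whether BIO acted differently in the 2 culture forms was tested as an interaction. None of the 33 Hox genes passed in limma, against 1.57% of all genes (0.726% with a more positive and 0.841% with a more negative BIO change in aggregates), and the smallest adjusted p was 0.169. At an unadjusted p under 0.05 there were 7, and 5 of these had a more positive BIO change in aggregates: Hoxb2, Hoxb4, Hoxb5, Hoxc5 and Hoxc10. All genes were not counted at that threshold, so the 7 cannot be read as many or few. For Hoxd3 the BIO change in aggregates minus that in dispersed cells was -0.85 (95% interval -1.42 to -0.27), and for Hoxd1 it was -0.93 (-1.76 to -0.10). With array weights, without BIO dispersed array 2, or without the 4 arrays apart in the 3' beta-actin control, 1 Hox gene passed.

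Over a second day in BIO 4 HoxC genes fell and 2 HoxD genes rose. With BIO for 48 h, 9 of 33 Hox genes were lower than with BIO for 24 h in aggregates, against 12.8% of all genes, and 4 were higher (8.05%). In HoxC, 4 of 7 were lower, with a median change of -1.07, and in HoxD 2 of 8 were higher, with a median of 0.23, against -0.08 over all genes. Markers moved over the second day of BIO too. Of 8 nephron progenitor markers 3 were lower and 0 higher. Their summed signal was 6978 to 8318 after 48 h, against 13822 to 14484 after 24 h. Of 10 stroma markers 4 were lower and 0 higher, with a sum of 2799 to 3316 against 4942 to 5277. The part of these shifts was not tested. The Gapdh 3' over 5' ratio, a measure of RNA quality, averaged 7.87 with BIO for 48 h and 12.1 with BIO for 24 h. With it as a covariate 8 Hox genes were called, against 13 without, and over all genes 1308 in place of 3792. Fitting only the arrays compared gave 6 Hox genes. Adjusting for 3' beta-actin signal gave 7, and over all genes 1481 in place of 3792.

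Hoxc4 had 134, 64 and 66 after 48 h in BIO, against 684, 635 and 730 after 24 h, and fell by 3.03 ± 0.21 (adjusted p = 6.89e-08). Its lowest arrays were close to background. Hoxc5 had 313, 559 and 471 after 48 h, against 1550, 1604 and 2086 after 24 h, a fall of 1.99 ± 0.21 (4.77e-06). The call of Hoxc5 was lost when all its probe sets were averaged (adjusted p = 0.0566). Hoxc8 had 366, 435 and 507 after 48 h, against 1682, 1278 and 1420 after 24 h, and fell by 1.74 ± 0.13 (1.43e-07). Hoxc10 had 1805, 2308 and 2493 after 48 h, against 4395, 4550 and 4815 after 24 h, and fell by 1.07 ± 0.10 (1.61e-06). None of the 4 genes overlapped between these groups, and Hoxc6 and Hoxc9 were not called.

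Smaller falls on the second day of BIO were those of Hoxa2 (-0.79 ± 0.18), Hoxa3 (-0.65 ± 0.21, groups overlapping), Hoxa10 (-0.53 ± 0.16), Hoxb3 (-0.48 ± 0.09) and Hoxb5 (-0.52 ± 0.13). Read by itself, the second probe set of Hoxb3 changed by -0.28 ± 0.20 (adjusted p = 0.384). Hoxd8 rose to 1631, 1651 and 1752 after 48 h in BIO, against 1038, 997 and 1073 after 24 h, by 0.70 ± 0.08 (adjusted p = 8.04e-06). Hoxd9 rose by 0.48 ± 0.12 (0.00943) and Hoxb9 by 0.88 ± 0.26 (0.0222). Hoxa7, a mid-cluster gene, had 163, 150 and 100 after 48 h in BIO, against 13, 13 and 21 after 24 h. The 24 h level was below background, so the rise was at least 3.17-fold (0.000831). In no other group did the mean of Hoxa7 pass background. The calls of Hoxa3, Hoxa10, Hoxb5 and Hoxb9 were lost when single arrays were left out (adjusted p up to 0.132), and Hoxa10 changed by 0.15 when its probe sets were averaged. In every alternative run but a 2-fold minimum 4 of the 13 calls stood, Hoxc4, Hoxc8, Hoxc10 and Hoxd8. Those of Hoxd9 and Hoxa7 were not among them.

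**Figure D3:**
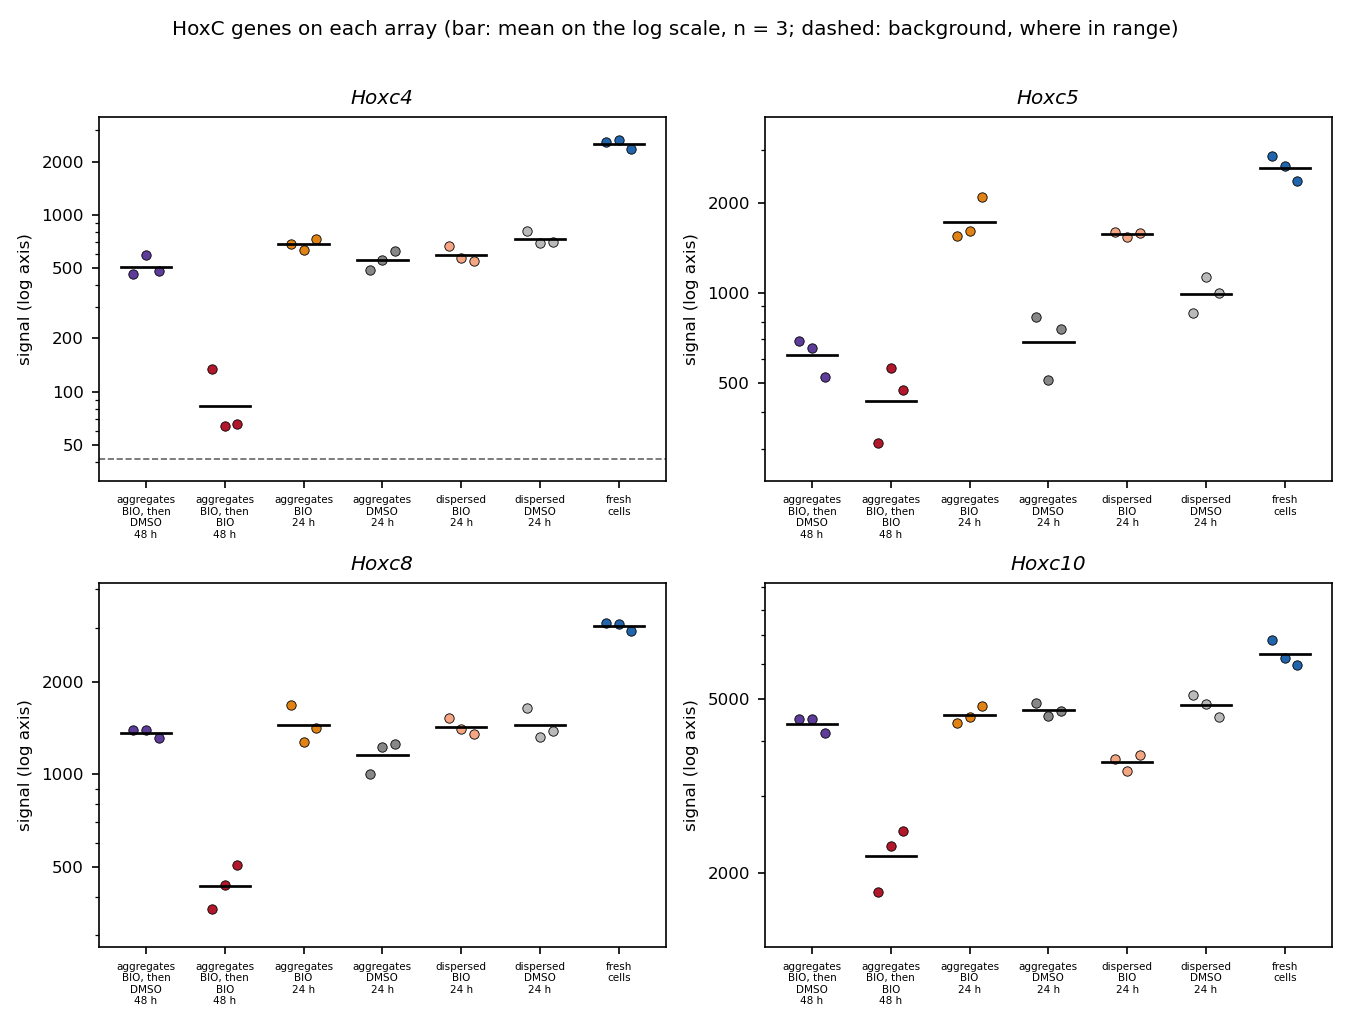
Signal on each array (log axis) of Hoxc4, Hoxc5, Hoxc8 and Hoxc10 in the 7 groups, with fresh cells at the right; points are arrays, bars are means on the log scale (n = 3), and the dashed line is background. The arrays with BIO for 48 h are the lowest of all for Hoxc4 (64 to 134), Hoxc8 (366 to 507) and Hoxc10 (1805 to 2493), and fresh cells are the highest for all 4 genes.

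At matched time, 3 HoxC genes were higher and 4 HoxB and 5 HoxD genes lower when BIO had been withdrawn for the second day. Against BIO kept, 14 Hox genes were called, compared with 20.4% of all genes. After withdrawal 3 were higher, compared with 9.29% of all genes, and all 3 were HoxC genes. Another 11 were lower, compared with 11.1% of all genes, 5 of them in HoxD, 4 in HoxB and 2 in HoxA. All 8 HoxD and all 9 HoxB genes had negative changes, called or not, as did 10284 of 18193 genes. Hoxd12 and Hoxb13, counted among them, were below background in both groups. The medians of HoxD and HoxB were -0.66 and -0.32, against -0.06 over all genes. This comparison and the second-day comparison share the arrays with BIO for 48 h. Stroma markers moved here too, 9 of 10 being higher, with a summed signal of 12453 to 13592 after withdrawal, against 2799 to 3316 with BIO kept, and their part was not tested. The Gapdh 3' over 5' ratio was 10.1 to 12.4 after withdrawal, against 6.34 to 8.96 with BIO kept. With it as a covariate 13 Hox genes were called, and over all genes 2378 in place of 3711.

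After withdrawal Hoxc4 had 461, 590 and 483, against 134, 64 and 66 with BIO kept, and was higher by 2.60 ± 0.21 (adjusted p = 1.62e-07). Hoxc8 had 1390, 1393 and 1315 after withdrawal, against 366, 435 and 507 with BIO kept (1.66 ± 0.13, 1.22e-07). Hoxc10 had 4495, 4496 and 4181, against 1805, 2308 and 2493 (1.01 ± 0.10, 1.96e-06). For these 3 genes all withdrawn arrays were above all BIO-kept arrays. Hoxc5 had 690, 653 and 522 after withdrawal, against 313, 559 and 471 with BIO kept, which overlapped, and was not called.

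Hoxd8 had 985, 924 and 971 after withdrawal, against 1631, 1651 and 1752 with BIO kept, a difference of -0.80 ± 0.08 (adjusted p = 1.14e-06). Its second probe set was called in the same direction. Hoxd9 had 598, 672 and 753 after withdrawal, against 1124, 1193 and 1221 with BIO kept, a difference of -0.81 ± 0.12 (0.000107). Hoxd1 had 89, 58 and 88 after withdrawal, against 82, 195 and 212 with BIO kept; it was called lower (-0.96 ± 0.28, 0.0206) although the groups overlapped. Hoxb9 had 502, 274 and 301, against 874, 593 and 1123 (-1.27 ± 0.26, 0.00177), and did not overlap. Hoxa7 had 79, 22 and 15 after withdrawal, against 163, 150 and 100 with BIO kept, and was at least 2.58-fold lower (0.0106). Hoxb6 (-0.95 ± 0.29, groups overlapping), Hoxb4 (-0.59 ± 0.14) and Hoxb3 (-0.29 ± 0.09) were also lower. A second probe set of Hoxb3 went the other way, by 0.17 ± 0.20 (adjusted p = 0.649). With its probe sets averaged Hoxb3 changed by -0.06 (0.741) and was not called. These are differences between 2 groups at 48 h. Against BIO for 24 h, aggregates moved to DMSO had no call for Hoxc4 (-0.42 ± 0.21), Hoxc8 (-0.09 ± 0.13), Hoxc10 (-0.06 ± 0.10), Hoxd8 (-0.11 ± 0.08) or Hoxd9 (-0.33 ± 0.12).

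Hoxc4, Hoxc8, Hoxc10, Hoxd8 and Hoxd9 kept their calls in every alternative but a 2-fold minimum. Leaving out single arrays ended those of Hoxa7, Hoxa11, Hoxb3, Hoxb6, Hoxd1 and Hoxd11 (adjusted p up to 0.177), and with a fit of only these 6 arrays 6 Hox genes were called.

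**Figure D4:**
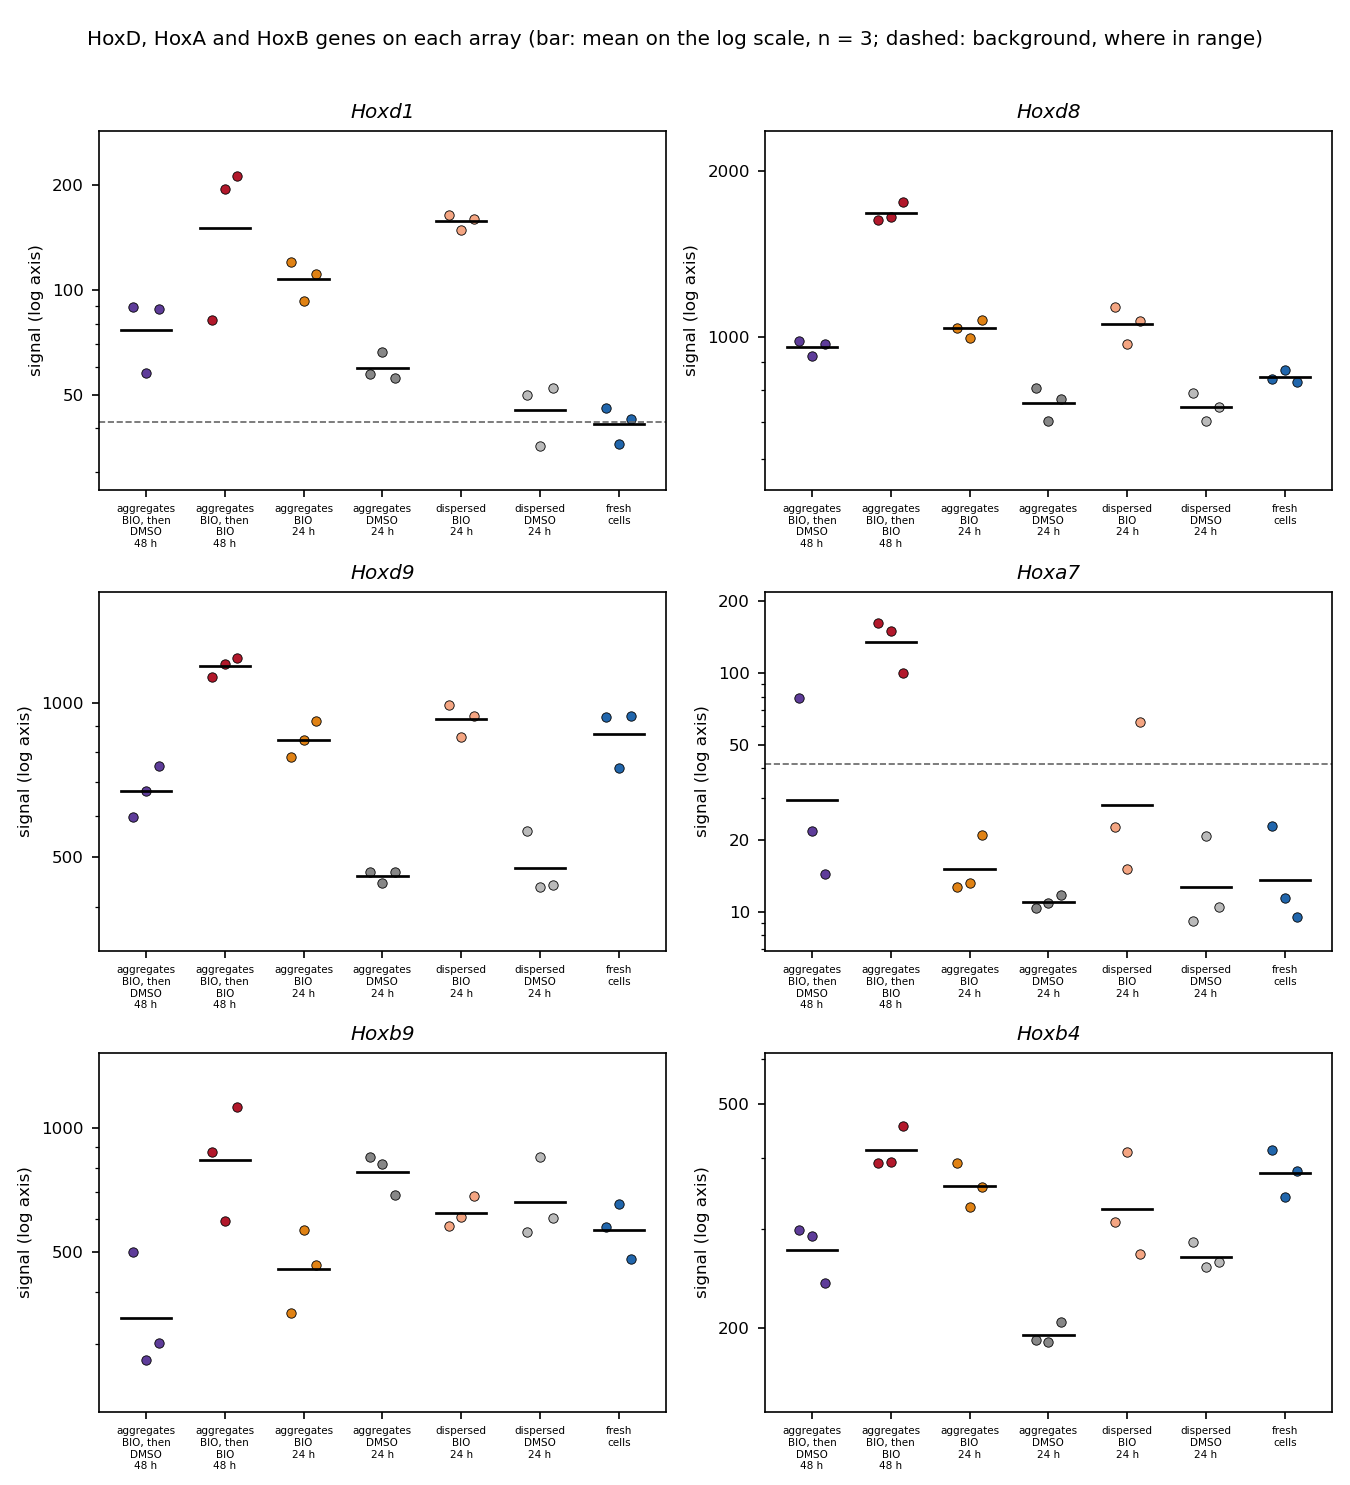
Signal on each array (log axis) of Hoxd1, Hoxd8, Hoxd9, Hoxa7, Hoxb9 and Hoxb4 in the 7 groups; points are arrays, bars are means on the log scale (n = 3), and the dashed line is background where it lies in range. The arrays with BIO for 48 h are the highest for Hoxd8 (1631 to 1752), Hoxd9 (1124 to 1221) and Hoxa7 (100 to 163), and those of BIO then DMSO lie below them.

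Set against BIO for 24 h instead, aggregates moved to DMSO for the second day had 7 Hox genes lower, against 16.2% of all genes, and 0 higher (8.66%). The median Hox change was -0.34, against -0.16 over all genes. With the deposited scaling 1 Hox gene was higher and 5 were lower. Over all genes 1981 were then higher and 1783 lower, in place of 1575 and 2946. Of 10 stroma markers 8 were higher and 0 lower, with a summed signal of 12453 to 13592 after BIO then DMSO, against 4942 to 5277 with BIO for 24 h, and of 8 progenitor markers 1 was higher and 4 lower; their part was not tested. Hoxc5, with the signals given above, fell by 1.49 ± 0.21 (adjusted p = 8.12e-05), Hoxd11 by 0.93 ± 0.23 (0.00791), Hoxb3 by 0.77 ± 0.09 (6.61e-06), Hoxa2 by 0.60 ± 0.18 (0.0216), Hoxb5 by 0.53 ± 0.13 (0.00814) and Hoxd10 by 0.53 ± 0.10 (0.00164). Hoxa10 fell by 0.47 ± 0.16 with its main probe set and its second probe set rose by 2.08 ± 0.70 (0.0435), so its direction here is uncertain. For Hoxb3 the second probe set changed by -0.11 ± 0.20 (0.729) and was not called. Adjusting for 3' beta-actin signal, 1 of the 7 calls was left and Hoxb5 changed by 0.03. Calls over all genes then numbered 864 in place of 4521. Leaving out single arrays ended the calls of Hoxa2 and Hoxa10 (adjusted p up to 0.169).

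Among the paralogues of groups 10 and 11, those with known kidney roles, Hoxa11 was called for BIO over DMSO in aggregates, and Hoxa11, Hoxc10, Hoxd10 and Hoxd11 between BIO withdrawn and BIO kept. Hoxa11 had 669, 661 and 608 in BIO aggregates, against 475, 477 and 480 in DMSO aggregates, without overlap, and rose by 0.43 ± 0.15 (adjusted p = 0.0373). In dispersed cells it had 604, 598 and 571 with BIO, against 538, 396 and 421 with DMSO, a change of 0.40 ± 0.15 (0.0556) that was not called. Against fresh cells (517, 744 and 741) it was lower by 0.46 ± 0.15 (0.0254) in DMSO aggregates and by 0.56 ± 0.15 (0.0082) in DMSO dispersed cells, where the groups overlapped. After withdrawal it had 443, 463 and 606, against 615, 738 and 679 with BIO kept (-0.44 ± 0.15, 0.0494). Each of these calls but that in DMSO dispersed cells was lost without single arrays, 5 arrays for BIO in aggregates and 16 for withdrawal.

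Hoxd11 had 204, 136 and 177 after withdrawal, against 271, 328 and 310 with BIO kept, a difference of -0.83 ± 0.23 (adjusted p = 0.0181) without overlap. Leaving out either of 2 arrays ended the call (up to 0.0886). It was not called for BIO over DMSO in aggregates (362, 369 and 255 against 193, 265 and 279; 0.42 ± 0.23, 0.207) or in dispersed cells (0.28 ± 0.23, 0.429). Nor was it called between DMSO culture and fresh cells (223, 194 and 209), with 0.22 ± 0.23 in aggregates and -0.16 ± 0.23 in dispersed cells.

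Hoxd10 had 1907, 1966 and 1917 after withdrawal, against 2195, 3136 and 3041 with BIO kept, a difference of -0.51 ± 0.10 (adjusted p = 0.00194). It had 2444, 2438 and 2565 in DMSO aggregates, against 3384, 3273 and 3106 in fresh cells (-0.39 ± 0.10, 0.00891). BIO over DMSO gave 0.16 ± 0.10 in aggregates and 0.10 ± 0.10 in dispersed cells, neither of them called. Hoxc10 was thus higher after withdrawal than with BIO kept, Hoxd10 and Hoxd11 were lower, and Hoxa10 gave 0.06 ± 0.16 and was not called. Signals of Hoxa10 were 1349, 1742 and 1876 after withdrawal, against 1397, 1435 and 1932 with BIO kept.

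**Figure D5:**
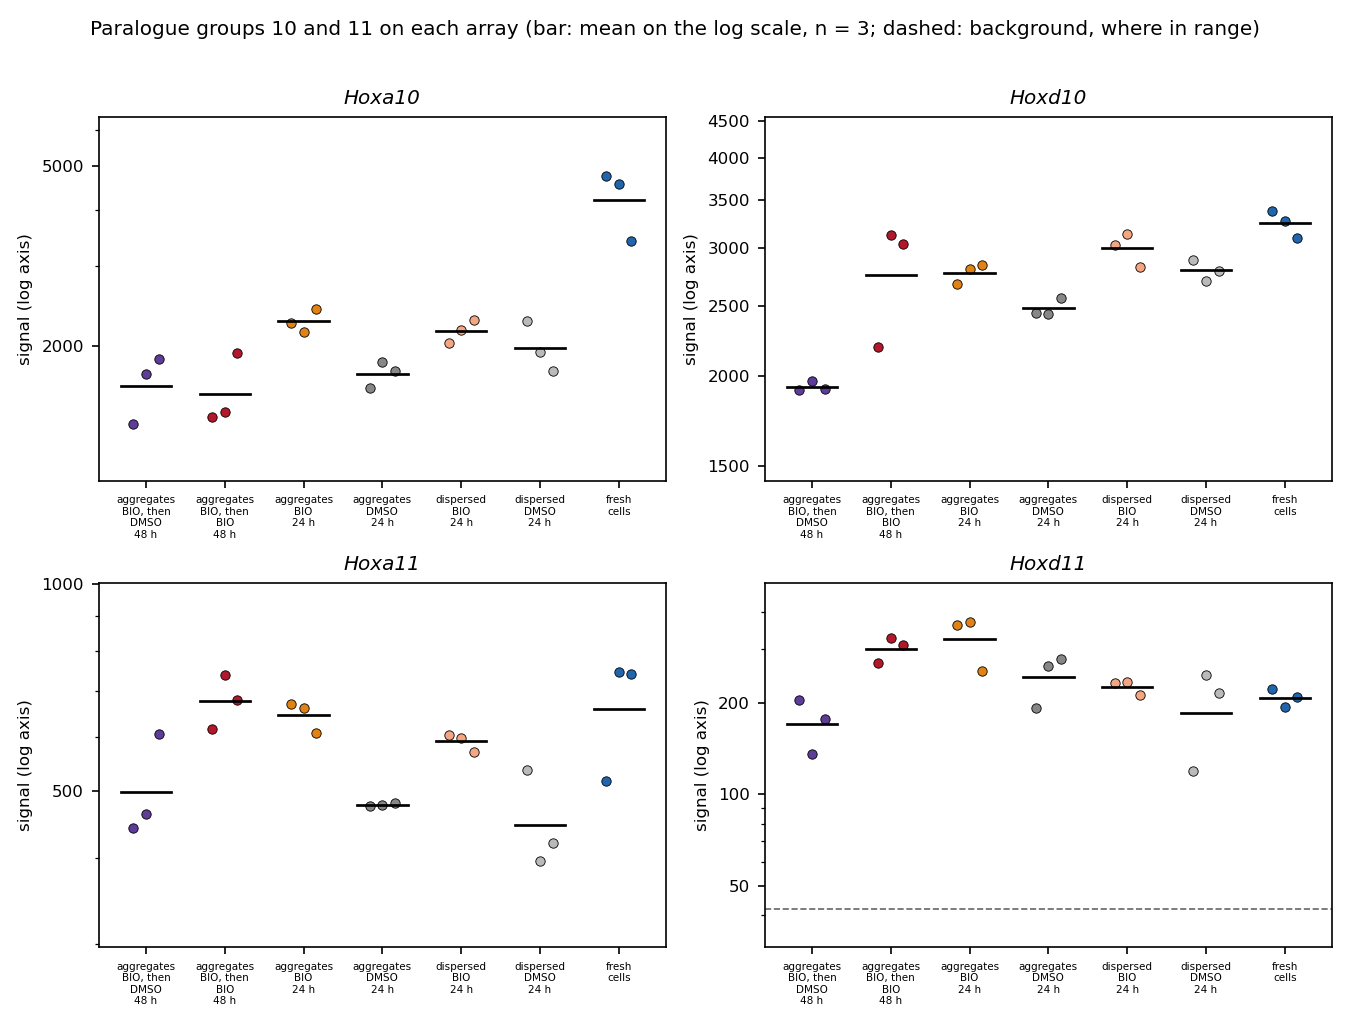
Signal on each array (log axis) of Hoxa10, Hoxd10, Hoxa11 and Hoxd11 in the 7 groups; points are arrays, bars are means on the log scale (n = 3). Hoxa10 is highest in fresh cells (3423 to 4754), and Hoxd10 is lowest after BIO was replaced by DMSO (1907 to 1966).

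Hox calls for aggregation were near the share over all genes. Between DMSO aggregates and DMSO dispersed cells limma called 0 of 33, against 2.62% of all genes (1.84% higher and 0.786% lower), with a smallest adjusted p of 0.083. At an unadjusted p under 0.05 there were 5, Hoxa9, Hoxb3, Hoxb4, Hoxc5 and Hoxc8. All genes were not counted at that threshold, so the 5 cannot be read as many or few. In BIO, 6 Hox genes were called, 18.2% of the 33 against 17.2% of all genes. Of these 5 were higher in aggregates than in dispersed cells (12.6% of all genes) and 1 was lower (4.65%), with a median of 0.13 against 0.18 over all genes. Hoxb2 had 2308, 2095 and 1589 in BIO aggregates, against 1036, 1131 and 1120 in BIO dispersed cells, and was higher by 0.85 ± 0.14 (0.00113). Hoxa2 (0.62 ± 0.18), Hoxb5 (0.49 ± 0.13), Hoxc10 (0.35 ± 0.10) and Hoxb3 (0.33 ± 0.09) were higher and Hoxd3 was lower (-0.71 ± 0.19). No call among these 6 held in all alternatives. Without BIO dispersed array 1 the count was 1, without BIO aggregate array 2 or 3 it was 3, and with the deposited scaling 1 gene was higher and 1 lower. Over all genes that scaling gave 999 higher and 1060 lower, in place of 2289 and 846. Adjusting for 3' beta-actin signal left 1, and over all genes 392 in place of 3135.

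Of 8 TALE cofactors of Hox proteins measured, 2 were higher and 2 lower with BIO in aggregates, where 17.5% of all genes were higher and 12.5% lower. In dispersed cells 2 were higher and 2 lower as well, against 15.3% and 13.4% of all genes. Meis2 fell by 1.07 ± 0.08 (adjusted p = 7.65e-08) in aggregates and by 0.68 ± 0.08 (1.09e-05) in dispersed cells. Pknox2 fell by 1.10 ± 0.19 and 0.97 ± 0.19, and Pbx3 rose by 0.66 ± 0.19 and 0.65 ± 0.19. Meis1 fell in DMSO aggregates against fresh cells by 1.12 ± 0.09 and was higher with BIO withdrawn than with BIO kept by 1.36 ± 0.09. The second cofactor called higher in aggregates, Pbx4, was below background in both groups.

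Of 10 measured Hox11 partners and targets in the metanephric mesenchyme, 5 were higher and 5 lower with BIO in aggregates, and 3 were higher and 5 lower in dispersed cells, against the same shares of all genes. Gdnf, the ligand that draws out the ureteric bud and a target of Hox11 proteins, rose by 2.12 ± 0.39 in aggregates and differed by -3.62 ± 0.39 between BIO withdrawn and BIO kept. Sall1, a zinc-finger factor of progenitors, rose by 1.73 ± 0.13 in aggregates, and Foxc1, a forkhead factor, fell by 1.52 ± 0.08. Six2 fell by 1.62 ± 0.12 in dispersed cells and Eya1, the Hox11 partner, rose by 1.40 ± 0.14. Against fresh cells 6 were lower in each DMSO culture and 0 higher. Over all genes 14.5% were lower and 18.4% higher in DMSO aggregates, and 18.3% and 15.0% in DMSO dispersed cells. Six2, Eya1, Gdnf, Sall1 and Osr1 are also among the nephron progenitor markers, so these counts are not separate from those of the markers.

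Transcripts and genes beside the clusters were counted too. Of 18 measured, 6 were higher and 2 lower with BIO in aggregates (17.5% and 12.5% of all genes), and 4 and 3 in dispersed cells (15.3% and 13.4%). Hoxa11os, the antisense transcript of Hoxa11, rose by 0.72 ± 0.14 in aggregates and by 1.07 ± 0.14 in dispersed cells, and differed by -1.02 ± 0.14 between BIO withdrawn and BIO kept. Evx1, a homeobox gene next to Hoxa13, was below background after withdrawal and at least 8.85-fold lower there (adjusted p = 1.27e-05). Jazf1, farther out from HoxA, changed by -1.62 ± 0.25 in aggregates and by -2.46 ± 0.25 in dispersed cells.

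The Cdx and early posterior genes, upstream regulators of Hox expression in the embryo, gave no call for BIO over DMSO. None of 6 measured was called in limma, the largest change in aggregates being that of Gdf11 (-0.71 ± 0.29, unadjusted p = 0.027, adjusted p = 0.0795), and Cdx1 and Cdx4 were below background in all 7 groups. The 7 Wnt response genes, by contrast, were all higher with BIO in both culture forms and all lower after withdrawal than with BIO kept, with median changes of 4.98 in aggregates, 5.54 in dispersed cells and -2.83 after withdrawal. Axin2, a feedback inhibitor of the pathway, rose by 4.25 ± 0.17 in dispersed cells and differed by -2.83 ± 0.17 between BIO withdrawn and BIO kept. Their direction fits the labels of the BIO arrays.

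Other cell types were also checked by their markers. Of 11 bud markers 1 was higher and 2 lower after withdrawal, and their sum was 2189 to 3064, against 2250 to 2543 with BIO kept. Leukocyte markers (5), endothelial markers (6), podocyte markers (3) and erythroid markers (2) gave 1, 1, 0 and 0 higher and 1, 0, 1 and 0 lower with BIO in aggregates. The part of these cells in the Hox changes was not tested.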

How the data were processed

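The deposited values are linear signal intensities from Affymetrix 430 2.0 arrays, 45101 probe sets on each of 21. How the authors scaled them, and with what software, is not given in the sources used here. Per the labels' protocols RNA was amplified in 2 rounds and labelled with biotin. Values were quantile-normalized and put on log2(value + 1). Background was set from 27 bacterial controls, at the 95th percentile of their signal. Of all probe sets 34945 carried 1 symbol, 932 several, 9160 none, and 64 were controls. Tests used those with 1 symbol, and a gene with several kept the one brightest on average.

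Groups were compared in 12 comparisons with limma 3.58.1 (R 4.3.3), with 7 group means over 21 arrays (14 residual degrees of freedom), Benjamini-Hochberg adjustment over 18193 genes and a threshold of 0.05. A fold is a bound where 1 group lay below background. The members, the 15 gene lists and the tests were chosen with earlier results of these data known. Named genes are paralogues 10 and 11 and, in each comparison, up to 6 largest rises and 6 largest falls among called Hox genes above background in at least 1 group, with up to 4 called genes, or the 1 largest change, of a list. Other genes were named to account for a count.

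Alternatives were the deposited scaling, median centring, log2(value + 16), a filter on dim genes, adjustment over all probe sets (each gene still read from its main one), a gene's probe sets averaged, a fit of the compared arrays alone, weighted arrays, a trended robust prior, a replicate block, Gapdh 3' over 5' or 3' beta-actin as covariate, a 2-fold minimum and each array left out. Chosen after seeing the data was leaving out 4 arrays apart in 3' beta-actin. The fit was tested on simulated data. Figures were drawn with matplotlib 3.10.9 (Python 3.11.15). Precision is limited by n = 3 arrays a group.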

Additional observations from a re-analysis of the deposited data

Results flagged for a closer look

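In at least 1 group, signal stood above background in 3 probe sets that match more than 1 Hox gene and were left out of every comparison. The first probe set shared by Hoxd4 and Hoxd3 averaged 326.3 ± 86.3 (SD, n = 3) in BIO dispersed cells, its highest group, and 171.0 ± 25.2 in DMSO dispersed cells. The second averaged 99.4 ± 11.4 in BIO dispersed cells and 30.1 ± 16.4 in DMSO dispersed cells, where it was below the background of 41.8, and these arrays did not overlap. The probe set shared by Hoxb8 and Hoxb7 averaged 607.2 ± 47.3 in fresh cells, its highest group. No Hox gene passed the test of a different BIO effect in the 2 culture forms.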

How the results depend on the processing

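Of 117 called Hox results 52 stayed called in every alternative run but the 2-fold minimum, other probe sets by themselves not being among these. Counts of called Hox genes, main value first, moved by over 1.5 times as follows. The 2-fold minimum left 1 of 10 for BIO in aggregates, 1 of 8 for BIO in dispersed cells, 5 of 14 for withdrawal, 0 of 6 for aggregation in BIO, 5 of 17 for DMSO aggregates over fresh cells, 6 of 16 for DMSO dispersed cells over fresh cells, 5 of 14 for BIO aggregates over fresh cells, 4 of 12 for BIO dispersed cells over fresh cells, 5 of 13 for BIO for 48 h over 24 h and 1 of 7 for BIO then DMSO over BIO for 24 h. Over all genes that minimum left, in the same order, 1950 of 5455, 1898 of 5230, 1452 of 3711, 636 of 3135 and 2116 of 5990. The rest, still in that order, were 2224 of 6048, 1939 of 6129, 1680 of 4719, 1266 of 3792 and 1527 of 4521. The 3' beta-actin covariate gave 4 for BIO in aggregates, 1 for aggregation in BIO, 8 for BIO aggregates over fresh cells, 7 for BIO for 48 h over 24 h and 1 for BIO then DMSO over BIO for 24 h. Over all genes it gave, in the same order, 2456, 392, 2209, 1481 and 864 calls, in place of 5455, 3135, 6129, 3792 and 4521. The Gapdh covariate gave 5 for BIO in dispersed cells and 8 for BIO for 48 h over 24 h. Over all genes it gave, in the same order, 4203 calls in place of 5230 and 1308 in place of 3792. The mean of all probe sets gave 5 for BIO in dispersed cells and 3 for aggregation in DMSO (main 0). For aggregation in DMSO the deposited scaling gave 1 and median centring 2, and for aggregation in BIO the deposited scaling gave 2. Over all genes these runs gave, in the same order, 272 and 922 calls in place of 477, and 2059 in place of 3135. Fitting only the arrays compared gave 6 for withdrawal and 6 for BIO for 48 h over 24 h. For the difference of BIO effects (main 0) array weights gave 1, as did leaving out the 4 arrays apart in 3' beta-actin. Signs turned with the 3' beta-actin covariate for Hoxb2 with BIO in aggregates (-0.067), Hoxd11 in BIO aggregates over fresh cells (-0.021) and Hoxb5 in BIO then DMSO over BIO for 24 h (0.033). They turned with the mean of all probe sets for Hoxa10 in BIO for 48 h over 24 h (0.15) and in BIO then DMSO over BIO for 24 h (0.81). Leaving out each array gave 5 to 11 calls for BIO in aggregates, 5 to 9 for BIO in dispersed cells, 0 to 1 for their difference, 10 to 15 for withdrawal, 0 to 1 for aggregation in DMSO and 1 to 7 in BIO. Against fresh cells it gave 14 to 18 for DMSO aggregates, 14 to 18 for DMSO dispersed cells, 10 to 15 for BIO aggregates and 11 to 14 for BIO dispersed cells. It gave 9 to 13 for BIO for 48 h over 24 h and 5 to 10 for BIO then DMSO over BIO for 24 h. Same-numbered arrays did not on average deviate together (mean r = -0.04 over 63 pairs). The check cannot show whether same-numbered arrays shared a sort or litter, and the labels do not say. The replicate block gave 9 calls for BIO in aggregates, 7 in dispersed cells and 13 for withdrawal. The cause of these shifts was not tested. The median of all genes was 0.18 for BIO aggregates over fresh cells and 0.04 with the deposited scaling, so sizes in that comparison depend on scaling. Genes near background (Hoxa4, Hoxa7, Hoxd1) have only bounds or wide errors.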

Other observations

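Chromatin regulators that hold Hox clusters silent or active were also counted. Of 18 Polycomb group genes measured, 9 were lower and 1 higher in DMSO aggregates than in fresh cells (14.5% and 18.4% of all genes), with Ezh1, a histone H3K27 methyltransferase, lower by 1.37 ± 0.11 and Phf19, a subunit of the same complex, lower by 1.20 ± 0.22. With BIO in aggregates 7 were higher and 0 lower (17.5% and 12.5% of all genes), with Cbx2, a chromobox subunit, higher by 0.87 ± 0.11 and Ezh2 by 0.62 ± 0.11. After withdrawal 1 was higher and 1 lower. Of 13 Trithorax genes and H3K27 demethylases 7 were lower in DMSO aggregates than in fresh cells and 1 higher, and 4 were higher with BIO in aggregates against the same shares, with Ash2l at 0.84 ± 0.17 and Kdm6b at 0.42 ± 0.13.

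Retinoic acid, made by Aldh1a enzymes, sets Hox boundaries in the embryo. Of 14 genes of this response 4 were higher and 2 lower with BIO in aggregates (17.5% and 12.5% of all genes), and 3 were higher and 6 lower after withdrawal (9.29% and 11.1%). Aldh1a2 rose by 2.14 ± 0.08 with BIO in aggregates, and the receptor gene Rarb fell by 1.31 ± 0.14. Aldh1a3 was lower after withdrawal than with BIO kept by a log2 change of -3.90 ± 0.25, and Crabp1, a binding protein for retinoic acid, by -2.50 ± 0.29.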
